A study of Homo sapiens with 6 samples.

Results

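The 33 genes described here make up the p53 pathway: targets that p53 switches on, and the regulators that hold p53 in check. They were chosen by name from the 26372 gene symbols of the deposited table, and all 33 were found in it. RNA was measured in SH-SY5Y, a human neuroblastoma cell line with neuron-like features that is known to keep wild-type p53. Cells of both groups had been infected with lentivirus carrying a short hairpin RNA and kept in puromycin, at 2 µg/mL for 2 weeks and at 1 µg/mL afterwards. Cells labelled shNC carried a control hairpin, and cells labelled shTDP43 carried a hairpin against TDP-43, the RNA- and DNA-binding protein encoded by TARDBP. Each group had 3 libraries of poly(A) RNA. All cells are of this 1 line, and with 1 hairpin per group, and no rescue among the samples, an effect of TDP-43 loss and another effect of the hairpin cannot be told apart.

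The tumour suppressor p53 is a transcription factor that is kept scarce by the ubiquitin ligase MDM2 and its relative MDM4. DNA damage and other stress free it from them, and it then binds pairs of short DNA half-sites near its target genes. Its targets stop the cell cycle, repair DNA, or start cell death, and some of them, MDM2 first, feed back to switch p53 off. In neuroblastoma p53 is seldom mutated at diagnosis, and the pathway governs how the cells respond to DNA-damaging drugs.

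The genes were divided by their textbook roles into 4 arms, each gene in 1 arm: 9 for arrest and growth, 16 for death and mitochondria, 4 for repair and 4 for feedback. Levels are FPKM, fragments per kilobase of gene scaled to library size, so they can be compared between genes. A gene was tested if its mean over the 6 libraries was at least 1 FPKM, which 30 of the 33 passed. SPATA18, TNFRSF10A and FAS were below it. A gene is said to have fallen or risen where limma's test of log2(FPKM + 1), adjusted by the Benjamini-Hochberg method over all 13263 tested genes, gave a p under 0.05. Log2 fold changes are on that scale, which understates changes of low genes, and percentages are ratios of mean FPKM. The labels do not say whether libraries of a group came from separate cultures, so p-values cover the spread between these libraries alone, which may be technical.

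TARDBP, the targeted gene, had 56.1, 56.2 and 56.6 FPKM in the shNC libraries and 36.0, 33.1 and 34.8 FPKM in the shTDP43 libraries, which is 61.5% of control (limma adjusted p = 2.84e-06). Between 17945 and 18334 genes were above 0 in a library, with relative depth, estimated from steps among low values, higher in each shNC library (1.16 to 1.27) than in each shTDP43 library (1 to 1.12). All 33 pathway genes were above 0 in every library. The small nucleolar RNA SNORD3A was at 11540 FPKM in shNC replicate 1 and 8551 FPKM in shTDP43 replicate 3, against 137200 to 552700 FPKM in the other libraries, so the main counts are also given without those 2 libraries. Noradrenergic neuroblast markers summed to between 1670 and 1679 FPKM in shNC and between 1865 and 1920 FPKM in shTDP43 (5 of 9 tested higher, 3 lower). Mesenchymal markers summed to between 515.6 and 522.9 FPKM in shNC and between 454.7 and 467.8 FPKM in shTDP43, with 9 of 11 tested lower and 2 higher. Schwann and glial markers summed to between 20.01 and 21.46 FPKM in shNC and between 9.34 and 9.897 FPKM in shTDP43, mostly PMP22, while the defining factor gene SOX10 had 0.149 to 0.24 FPKM in shNC and 0.19 to 0.368 FPKM in shTDP43. Both of the 2 tested Schwann and glial markers were lower. Blood, endothelial and epithelial markers summed to between 2.642 and 5.353 FPKM in any library, with CD3E listed at 0 in all 6 and 1 of 2 tested markers lower. Mesenchymal and glial markers were thus mostly lower, like the pathway genes, and their part in the results was not tested. In bulk RNA, fewer cells of a type and less RNA per cell cannot be told apart.

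Most p53 pathway genes were lower in shTDP43. Of the 30 tested, 18 fell, 2 rose and 10 did not pass the test. Of all tested genes 19.6% fell and 18.5% rose (38.1% in either direction). The median log2 fold change of the 30 genes was -0.23, against 0.00 over all tested genes. A fall of at least 1.5-fold in mean FPKM was found for 10 of the 30 genes and for 3.9% of all tested genes. ZMAT3 at 66.6% of control was just inside that limit and SESN2 at 67.3% just outside it. Every shTDP43 library was below every shNC library for 18 of the 30 genes (25.4% of all tested genes), and above for 5 (25.3% of all tested genes). The median of the 30 genes, relative to the shNC mean, was -0.23, -0.23 and -0.26 in the 3 shTDP43 libraries and between -0.01 and 0.01 in the shNC libraries. Without the 2 libraries low in SNORD3A, 17 fell and 1 rose, since CCNG2 no longer passed (limma adjusted p = 0.057). In that fit 1760 of all 13259 tested genes fell and 1563 rose, fewer than in the main fit.

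**Figure D1:**
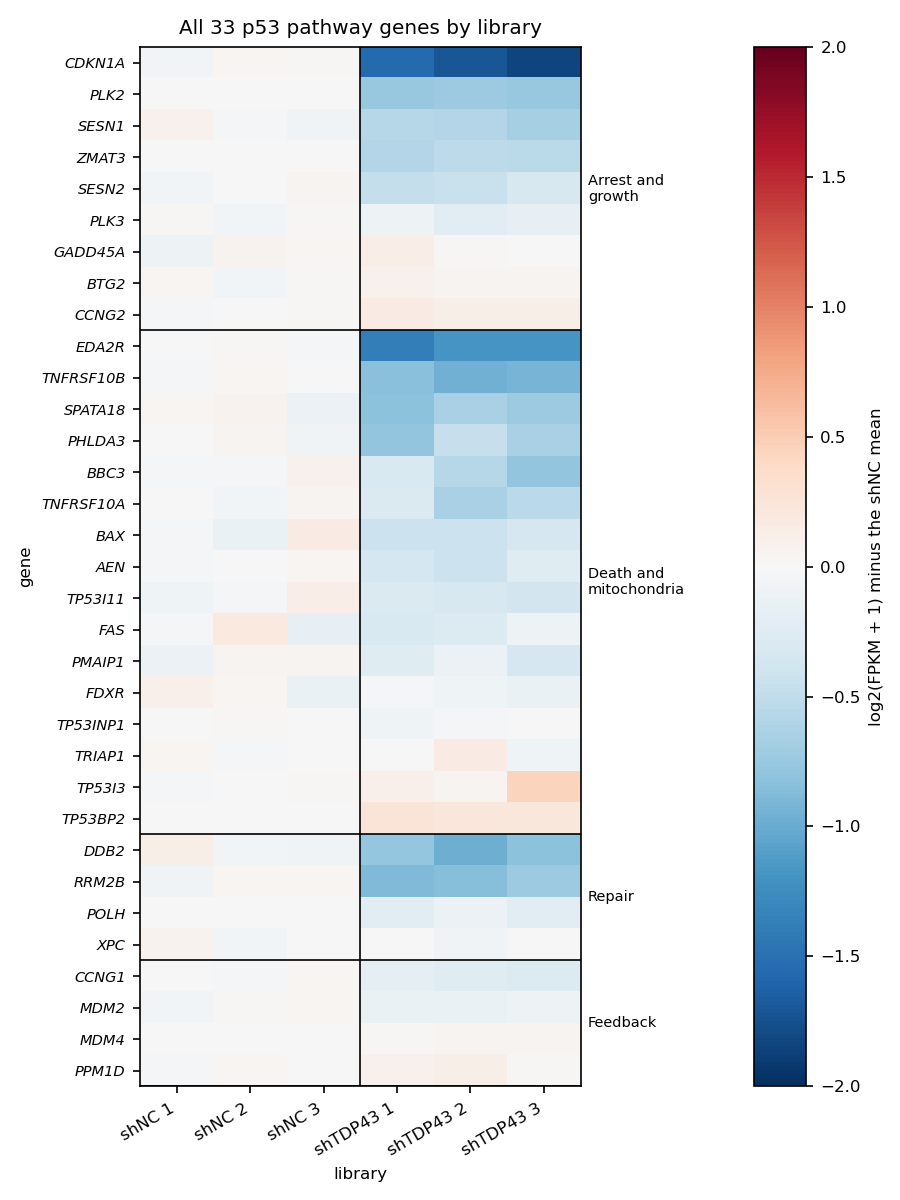
Each row is 1 of the 33 p53 pathway genes and each column 1 library; colour shows log2(FPKM + 1) minus the mean of the 3 shNC libraries, with blue lower and red higher, and black lines part the groups and the 4 arms. CDKN1A and EDA2R, at 26.6% and 31.9% of control, are the darkest blue in all 3 shTDP43 libraries, while TP53BP2 at 119% is pale red in all 3.

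In the arm of arrest and growth, 5 of 9 genes fell and 1 rose, against 19.6% and 18.5% of all tested genes. CDKN1A (GRCh38 chromosome 6, 36676463 to 36687332) encodes p21, the inhibitor of cyclin-dependent kinases through which p53 halts the cell cycle. In shNC it stood at 15.4, 16.5 and 16.3 FPKM, against 4.84, 4.21 and 3.80 FPKM in shTDP43. The shTDP43 libraries were all far below the shNC libraries, with little spread in either group. The fall was 3.76-fold, or -1.70 on the log2 scale (SE 0.07, n = 3 each; limma adjusted p = 1.52e-06), and it was the largest among the 30 genes. An exact two-sided permutation test of the 6 values gave p = 0.1, the smallest that 3 against 3 libraries allow.

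PLK2 (chromosome 5, 58453982 to 58460086), a polo-like kinase gene induced by stress, showed shNC levels of 6.40, 6.50 and 6.38 FPKM and shTDP43 levels of 3.37, 3.48 and 3.38 FPKM. Its libraries agreed closely within each group, and the level fell to 53.1% of control, or by 0.75 on the log2 scale (SE 0.05; limma adjusted p = 1.55e-05). SESN1, a sestrin that restrains the growth kinase mTORC1, had 15.2, 14.1 and 13.6 FPKM in shNC against 9.28, 9.17 and 8.66 FPKM in shTDP43, a fall to 63.3% of control. Its paralog SESN2 was expressed at a lower level, and fell to 67.3% of control, from 3.30 ± 0.172 FPKM in shNC (SD, n = 3) to 2.22 ± 0.189 FPKM in shTDP43 (limma adjusted p = 0.00263). ZMAT3, which encodes an RNA-binding zinc finger protein, fell from 19.0 ± 0.145 to 12.6 ± 0.30 FPKM in shTDP43 (limma adjusted p = 9.79e-06).

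The other 4 genes of arrest did not fall. CCNG2, which encodes the atypical cyclin G2, rose from 20.6 ± 0.366 to 22.7 ± 0.425 FPKM (limma adjusted p = 0.00944), with each shTDP43 library above each shNC library. BTG2, an antiproliferative gene, was the most abundant of the arm, with 42.3 ± 1.47 FPKM in shNC against 44.3 ± 0.685 FPKM in shTDP43, and did not pass (log2 difference 0.06, 95% interval -0.01 to 0.14; limma adjusted p = 0.137). GADD45A, a growth arrest and DNA damage gene, had 18.4 to 20.7 FPKM in shNC and 19.8 to 21.7 FPKM in shTDP43, with overlapping groups and a log2 interval of -0.07 to 0.17. PLK3, a relative of PLK2, had 2.07 ± 0.0952 and 1.74 ± 0.118 FPKM. The groups did not overlap, but the difference did not pass (limma adjusted p = 0.116), and the log2 interval was -0.33 to 0.01.

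**Figure D2:**
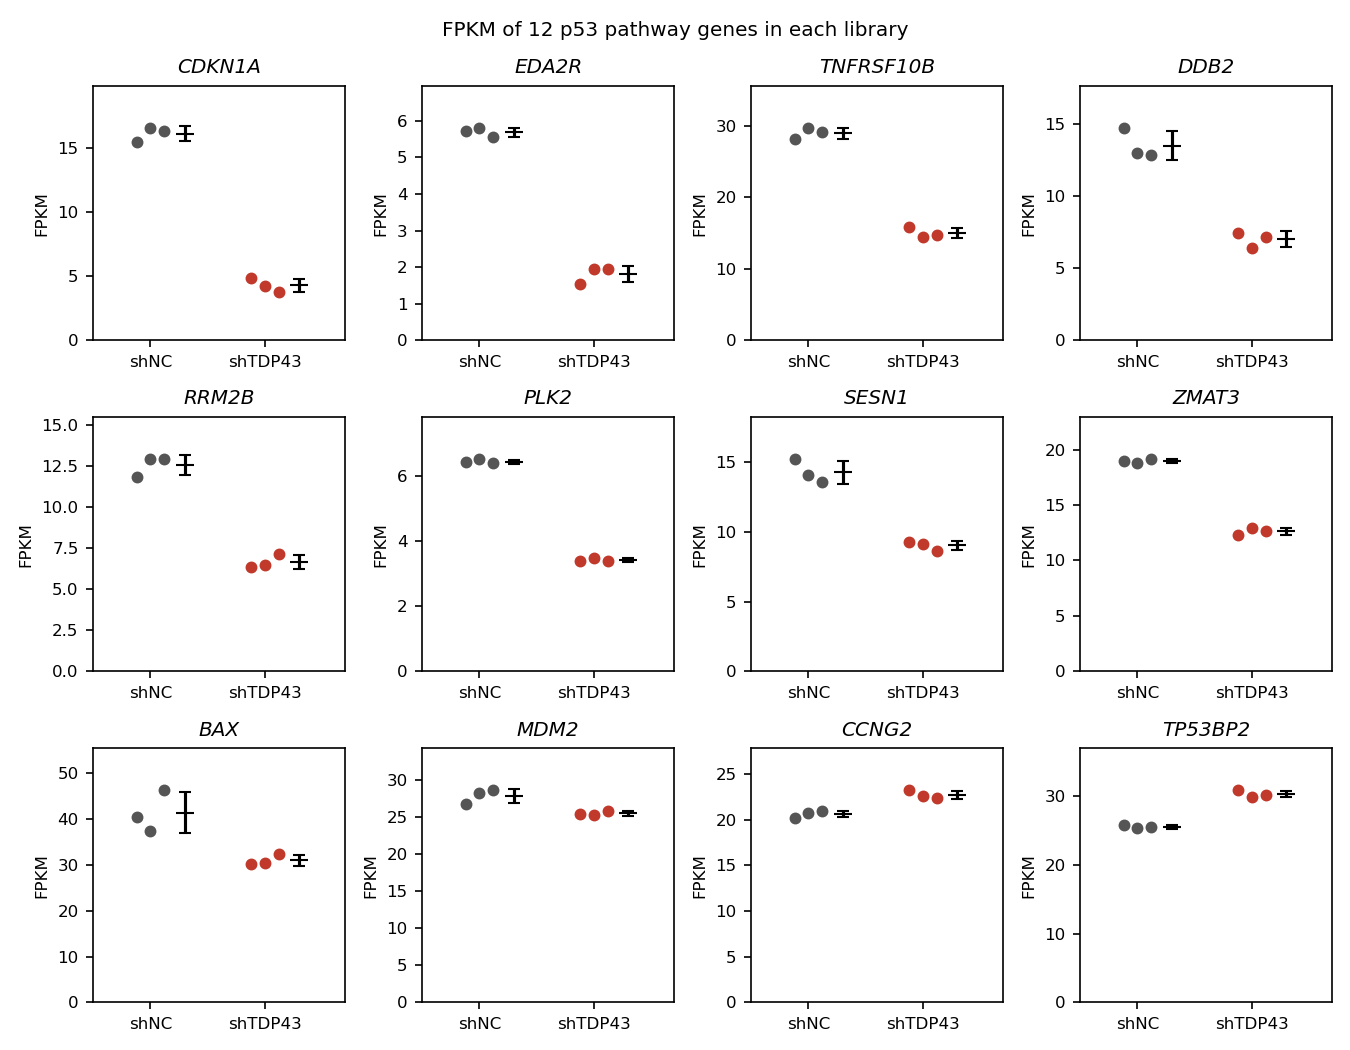
FPKM of 12 p53 pathway genes, on a linear axis from 0, with 1 dot per library (grey for shNC, red for shTDP43) and a black bar beside the dots for the mean ± SD of 3 libraries. The groups are apart in all 12 panels: the CDKN1A dots lie between 15.4 and 16.5 FPKM in shNC and between 3.80 and 4.84 FPKM in shTDP43, while the gap for MDM2 is small and CCNG2 and TP53BP2 lie higher in shTDP43.

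In the arm of death and mitochondria, 8 of 13 tested genes fell and 1 rose, against 19.6% and 18.5% of all tested genes. Death receptors on the cell surface were among them. EDA2R (chromosome X, 66595637 to 66639269), a receptor for ectodysplasin of the TNF receptor family, stood at 5.71, 5.79 and 5.56 FPKM in the control libraries and at 1.55, 1.94 and 1.96 FPKM with the TDP-43 hairpin. Every shTDP43 library was below every shNC library, and the mean fell to 31.9% of control, or -1.25 on the log2 scale (SE 0.07; limma adjusted p = 9.79e-06). TNFRSF10B (chromosome 8, 23020133 to 23069031), the TRAIL receptor DR5, fell from 28.1, 29.6 and 29.1 FPKM in shNC to 15.8, 14.5 and 14.7 FPKM in shTDP43, or 51.9% of control (limma adjusted p = 2.10e-06).

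The related receptor gene TNFRSF10A, which encodes DR4, was below the level tested. It had 0.665, 0.614 and 0.732 FPKM in shNC and 0.372, 0.0609 and 0.155 FPKM in shTDP43. FAS, the receptor for FAS ligand, had 0.178 to 0.506 FPKM in shNC and 0.0624 to 0.228 FPKM in shTDP43, with overlapping groups. Its locus overlaps ACTA2, whose mean was 4.56 FPKM in shNC and 0.774 FPKM in shTDP43, so its reads are uncertain. SPATA18, a gene of mitochondrial quality control, had 1.30, 1.36 and 1.07 FPKM in shNC and 0.264, 0.429 and 0.358 FPKM in shTDP43. When genes of any level were tested, SPATA18 and TNFRSF10A passed as lower (limma adjusted p = 0.00109 and 0.0127) and FAS did not (limma adjusted p = 0.156). At such levels the lower depth of the shTDP43 libraries and the group cannot be told apart.

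Of the genes that act inside the cell, BAX encodes a pore former of the outer mitochondrial membrane. It had 40.4, 37.5 and 46.3 FPKM in shNC against 30.2, 30.4 and 32.3 FPKM in shTDP43, a fall to 74.9% of control (limma adjusted p = 0.00253). BBC3, which encodes the BH3-only protein PUMA, was less abundant and fell from 4.53 ± 0.275 to 2.79 ± 0.654 FPKM, or 61.8% of control (SD, n = 3; limma adjusted p = 0.00702). PMAIP1, which encodes the BH3-only protein NOXA, had 20.5, 23.1 and 23.3 FPKM in shNC and 18.6, 20.5 and 17.4 FPKM in shTDP43. It passed as lower (limma adjusted p = 0.0254), although the highest shTDP43 library lay at the level of the lowest shNC library. The call was lost without shNC replicate 2, without shNC replicate 3, without shTDP43 replicate 1 and without shTDP43 replicate 3, with limma adjusted p values of up to 0.0794.

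PHLDA3, an inhibitor of the survival kinase AKT, fell from 5.01 ± 0.263 to 2.91 ± 0.442 FPKM, that is, 58.0% of the control level (limma adjusted p = 0.00096). AEN, a nuclease of apoptosis, fell to 77.2% and TP53I11 to 77.6% of control. TP53BP2 (chromosome 1, 223779893 to 223845947) encodes ASPP2, which binds p53 and steers it towards death genes. It was the only gene of this arm to rise, from 25.7, 25.3 and 25.4 FPKM to 30.8, 29.8 and 30.1 FPKM, or by 0.24 on the log2 scale (SE 0.03; limma adjusted p = 0.000313). TP53I3, an oxidoreductase gene, had 3.83, 3.89 and 4.00 FPKM in shNC and 4.29, 4.07 and 5.68 FPKM in shTDP43. The shTDP43 libraries were all higher but differed widely, and the gene did not pass (limma adjusted p = 0.149). FDXR, a mitochondrial reductase gene, at 92.9% of control, TP53INP1, a gene of autophagy and death, at 97.1%, and TRIAP1, a small inhibitor of apoptosis, at 102%, had overlapping groups and did not pass, with log2 intervals of -0.25 to 0.09, -0.12 to 0.03 and -0.11 to 0.17.

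In the arm of repair, 3 of 4 genes fell, against 19.6% of all tested genes. DDB2 (chromosome 11, 47214454 to 47239217), which recognises ultraviolet lesions in chromatin, fell from 14.7, 13 and 12.9 FPKM in shNC to 7.46, 6.38 and 7.19 FPKM in shTDP43, or 51.9% of control (log2 fold change -0.86, SE 0.07; limma adjusted p = 4.87e-05). RRM2B, the p53-inducible subunit of ribonucleotide reductase that supplies nucleotides for repair, had 11.9, 12.9 and 12.9 FPKM in shNC and 6.36, 6.47 and 7.15 FPKM in shTDP43, or 53% of control (limma adjusted p = 1.93e-05). Both genes were thus at about the same fraction of control, with no overlap between groups. POLH, a polymerase that copies past lesions, fell from 5.28 ± 0.0497 to 4.53 ± 0.212 FPKM (limma adjusted p = 0.0245), a call that was lost without each of 5 single libraries (all but shTDP43 replicate 2) and with quantile normalization. XPC, the other damage sensor of nucleotide excision repair, had 18.3 ± 0.848 FPKM in shNC and 18 ± 0.584 FPKM in shTDP43. Its log2 interval was -0.12 to 0.07 (limma adjusted p = 0.684).

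The feedback arm moved least, with log2 fold changes between -0.24 and 0.08. CCNG1, whose product cyclin G1 brings a phosphatase to MDM2, was the most abundant of the 33 genes. It had 54.0, 52.8 and 55.3 FPKM in shNC against 47.5, 45.3 and 44.4 FPKM in shTDP43, a fall to 84.6% of control (limma adjusted p = 0.000839). MDM2 (chromosome 12, 68808172 to 68850686) showed shNC levels of 26.8, 28.2 and 28.6 FPKM and shTDP43 levels of 25.3, 25.3 and 25.8 FPKM. The groups were close but apart, and it passed as lower (log2 fold change -0.12, SE 0.03; limma adjusted p = 0.0175), a call lost without shNC replicate 2 or without shNC replicate 3 (limma adjusted p = 0.0595 and 0.0593). MDM4, which binds and silences p53, had 44.1 ± 0.162 and 45.5 ± 0.574 FPKM (log2 interval -0.01 to 0.09; limma adjusted p = 0.186). PPM1D, the phosphatase WIP1 that ends the damage signal, had 12.8 ± 0.348 and 13.6 ± 0.462 FPKM (log2 interval -0.01 to 0.17; limma adjusted p = 0.147). Thus 2 of 4 feedback genes fell and 0 rose by limma, against 19.6% and 18.5% of all tested genes. At an unadjusted p under 0.05 the number higher was also 0.

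**Figure D3:**
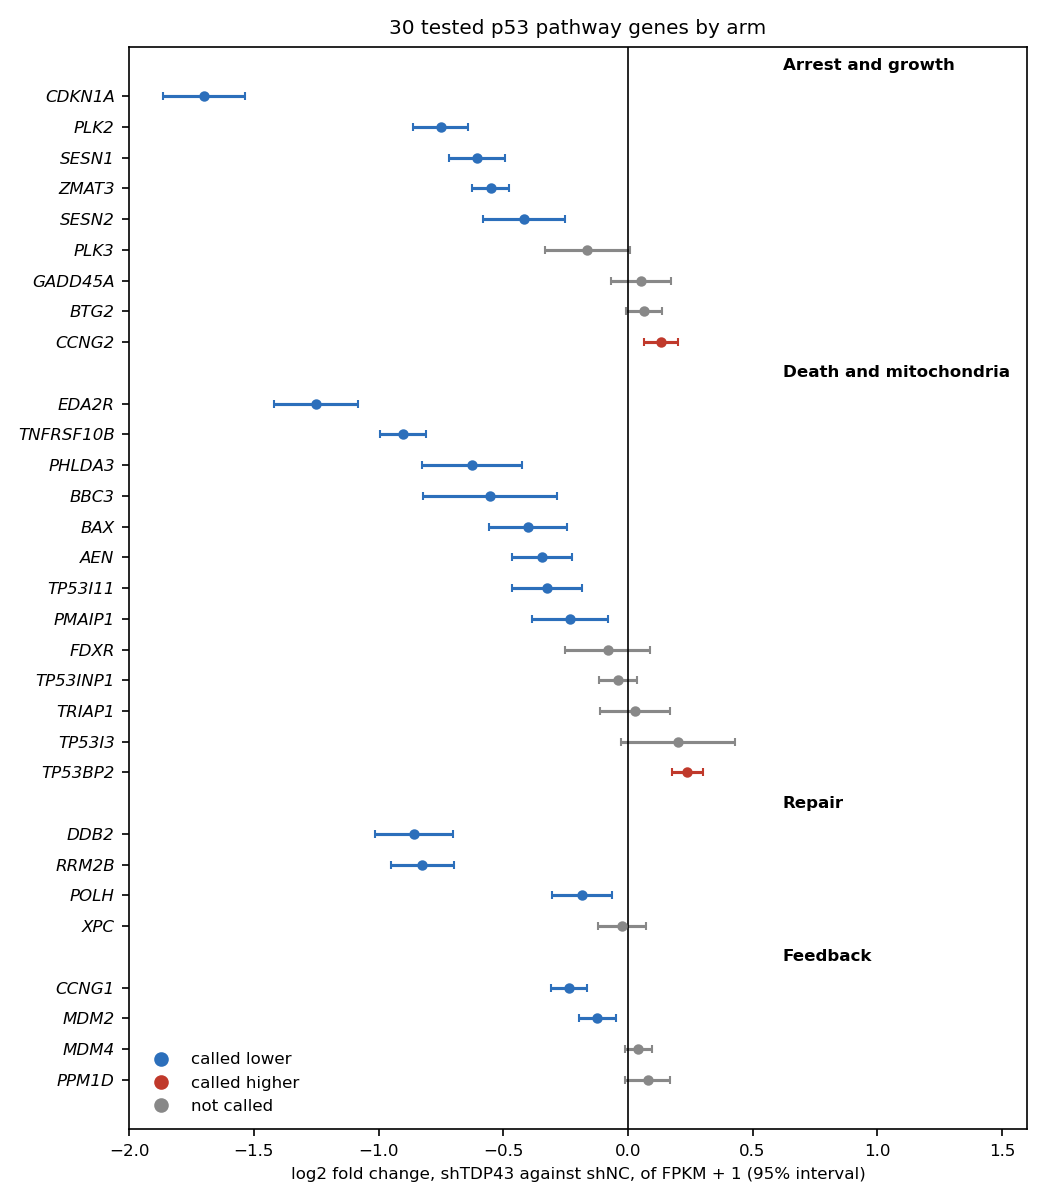
Log2 fold change of FPKM + 1, shTDP43 against shNC, with its 95% interval, for the 30 tested p53 pathway genes, sorted within each of the 4 arms; blue genes fell, red genes rose and grey genes did not pass limma's adjusted p. The fold changes themselves run from CDKN1A at -1.70 to TP53BP2 at 0.24, and those of the 4 feedback genes all lie between -0.24 and 0.08.

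The spread among closely related or partnered genes is described for 6 pairs. They were chosen after their values were seen, so no conclusion is drawn from a test of them. In each library the log2 level of 1 gene was compared with that of its partner, as the first minus the second. The difference between CCNG1 and CCNG2 was 1.31 to 1.37 in shNC and 0.96 to 1.00 in shTDP43, so the ratio of the cyclins was lower in every shTDP43 library. For PLK2 and PLK3 it was 1.24 to 1.34 in shNC and 0.61 to 0.77 in shTDP43. For DDB2 and XPC it was -0.48 to -0.36 and -1.31 to -1.19, and for MDM2 and MDM4 -0.70 to -0.62 and -0.83 to -0.80. In these 4 pairs the groups did not overlap (exact two-sided permutation p = 0.1, the smallest possible here). For SESN1 and SESN2, and for BBC3 and PMAIP1, the groups overlapped (exact two-sided permutation p = 0.2). Adjusted by the Benjamini-Hochberg method over the 6 pairs, these permutation p-values were 0.15 and 0.2. With a smallest possible p of 0.1, no pair could have passed.

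The p53 half-site is a stretch of 10 bases, the p53 decamer, which reads as the same pattern on either strand. RefSeq promoter windows on GRCh38.p14, from 250 bases before to 50 after a start, were matched to 27 of the 33 genes. A perfect decamer was found in 3 of the 27 (11.1%) and in 5.11% of 9778 windows of tested genes. A pair of decamers with intact cores, at most 2 mismatches in all and a gap of at most 13 bases was found in 1 of the 27 (3.7%) and in 0.972% of the windows. The 3 matches are shown because they place the half-site beside genes of different behaviour, with decamers in capitals and 15 bases on each side. The AEN site lies at chr15:88621291-88621340 on the plus strand, the PLK2 site at chr5:58460194-58460233 and the FDXR site at chr17:74872981-74873020, both on the minus strand.
AEN: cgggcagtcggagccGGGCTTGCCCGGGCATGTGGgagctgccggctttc
PLK2: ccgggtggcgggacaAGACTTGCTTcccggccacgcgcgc
FDXR: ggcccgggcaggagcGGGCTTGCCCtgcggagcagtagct
AEN holds 2 adjoining decamers, with 2 mismatches in the pair, which start 34 bases before the listed start of transcription. The decamers of PLK2 and FDXR start 132 and 11 bases before it. AEN and PLK2 fell to 77.2% and 53.1% of control, whereas FDXR, with the same first decamer as AEN, stood at 92.9% and did not pass. A match is a description of these letters and not a bound site, and the windows do not cover sites farther away or inside the genes. For 6 of the 27 genes, AEN and CDKN1A among them, the window belongs to a start downstream of the gene's first annotated one, by 16657 bases for AEN and 2251 bases for CDKN1A. The AEN pair therefore lies within the annotated gene, beside an inner start.

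The genes lie on 15 chromosomes, with 7 on chromosome 1 and 4 on chromosome 8. For the 10 genes that fell at least 1.5-fold, the 2 nearest tested genes on each side, 40 in all, were looked up. Of these 12 fell and 5 rose, with a median log2 fold change of -0.03. Of all tested genes 19.6% fell and 18.5% rose, which is the background for each count of neighbours here. The neighbours of CDKN1A did not share its fall: SRSF3 and PPIL1 rose to 116% and 114% of control, and STK38 and C6orf89 did not pass. Beside TNFRSF10B, EGR3 rose to 247% of control, and RHOBTB2, CHMP7 and R3HCC1 did not pass. Beside SESN1, FOXO3, ARMC2, CEP57L1 and CD164 all fell, to between 76.2% and 86.5% of control. Beside PHLDA3, TMEM9, CSRP1 and RPS10P7 fell, to 87.7%, 74.7% and 42.7% of control, and TNNT2 rose to 187%. ARMC2 overlaps SESN1, and whether the counting used strand is not known here, so their reads may be mixed. The same holds for TP53I11 with TSPAN18, TP53I3 with FAM228B, POLH with GTPBP2 and CCNG1 with NUDCD2. It also holds for TNFRSF10B with its neighbour RHOBTB2 and for TP53INP1 with NDUFAF6. RHOBTB2 had 7.047 FPKM in shNC and 7.565 FPKM in shTDP43, and NDUFAF6 5.219 and 5.055 FPKM. TSPAN18 had 42.8 FPKM in shNC and 33.95 FPKM in shTDP43, GTPBP2 22.4 and 18.1 FPKM, FAM228B 8.53 and 6.67 FPKM, and NUDCD2 30.6 and 29.5 FPKM. Over the 10 nearest tested genes on each side, 10 of 20 fell and 5 rose around PHLDA3, 8 fell and 2 rose around ZMAT3, 5 fell and 7 rose around SESN1, and 4 fell and 6 rose around CDKN1A. Around the other 6 genes, 2 to 5 of 20 fell and 0 to 5 rose.

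A further list held 60 other p53 targets. Of 51 tested, 20 fell (39.2%) and 3 rose (5.9%), against 19.6% and 18.5% of all tested genes. The median log2 fold change was -0.11. The largest falls were those of IGFBP3, whose product carries insulin-like growth factors, to 19.4% of control, GDF15, a stress cytokine gene, and IER5, an immediate early gene. GDF15 had 8.48, 9.72 and 7.73 FPKM in shNC and 2.06, 2.80 and 2.14 FPKM in shTDP43, or 27.0% of control (limma adjusted p = 1.93e-05), with no overlap. IER5 had 20.2, 19.9 and 18.8 FPKM in shNC and 9.97, 9.64 and 8.96 FPKM in shTDP43, or 48.5% of control. The 3 that rose were GREB1 at 123%, REV3L, a lesion-bypass polymerase gene, at 122% and PANK1, a coenzyme A synthesis gene, at 126% of control.

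Among regulators of p53 and kinases of the damage response, 10 of 33 tested genes rose (30.3%) and 4 fell (12.1%). Of all tested genes 18.5% rose and 19.6% fell. The median of the regulators was 0.05. USP7, a deubiquitinase of MDM2 and p53, rose to 122% of control, and SIRT1, a deacetylase of p53, to 118%. The ubiquitin ligase gene COP1, listed under its older symbol RFWD2, fell to 82.5%, and PPP1R13B, which encodes the ASPP2 relative ASPP1, to 85.5%. CDKN2A, whose locus also encodes the MDM2 inhibitor ARF, had 1.95, 1.81 and 1.53 FPKM in shNC and 0.602, 0.883 and 1.16 FPKM in shTDP43, and fell to 50.1% of control (limma adjusted p = 0.00878). The kinases ATM and ATR stood at 99.8% and 101.9% of control and did not pass (limma adjusted p = 0.949 and 0.666). Without the 2 libraries low in SNORD3A, 2 of 33 regulators were lower and 7 higher, against 1760 and 1563 of all 13259 tested genes. PPP1R13B did not pass there (limma adjusted p = 0.0767).

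Cell cycle genes that p53 represses through p21 and the DREAM complex, a repressor of cell cycle promoters, had small changes, more often downward. Of 36 tested, 13 fell (36.1%) and 5 rose (13.9%), against 19.6% and 18.5% of all tested genes. The median was -0.03 and the range -0.26 to 0.20. The largest falls were the mitotic genes CENPE at 82.5% and KIF2C at 84.6% of control, and the topoisomerase gene TOP2A, which had 126 ± 0.244 FPKM in shNC and 106 ± 0.711 FPKM in shTDP43. The largest rises were E2F1, a transcription factor of the S phase, at 116%, CDC25A, a phosphatase that activates cyclin-dependent kinases, at 114% and RRM2, the S-phase subunit of ribonucleotide reductase, at 112%. RRM2 thus rose where its p53-inducible relative RRM2B fell. Without the 2 libraries low in SNORD3A, 7 of the 36 fell and 3 rose, against 1760 and 1563 of all 13259 tested genes. Without shTDP43 replicate 3, 3 rose, against 1973 of all 13269 tested genes. The call of CDC25A was lost without any 1 of shNC replicates 1 and 3 and shTDP43 replicates 2 and 3 (limma adjusted p between 0.0601 and 0.0873).

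Paralogs and partners of the pathway genes, taken from outside the lists of p53 targets, were lower in 12 and higher in 4 of 32 tested. These shares of 37.5% and 12.5% stand against 19.6% and 18.5% of all tested genes. The share lower was near the 39.2% of the further p53 targets, while the median was -0.02. SESN3, the sestrin under the control of FOXO factors, fell from 16.4 ± 0.0820 to 9.47 ± 0.118 FPKM, or 57.9% (SD, n = 3; limma adjusted p = 2.18e-06), so all 3 sestrin genes fell. BTG3, a relative of BTG2, fell to 63.6% and CDKN1B, which encodes the p21 relative p27, to 80.4% of control. GADD45G, a relative of GADD45A, rose to 158% (a call lost without shNC replicate 1 or without shNC replicate 3, limma adjusted p = 0.0598 and 0.0624), the BAX relative BAK1 to 134% and the survival gene MCL1 to 117% of control. The decoy receptor gene TNFRSF10C had at most 0.107 FPKM in any library, and TNFRSF10D was listed at 0 in all 6.

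**Figure D4:**
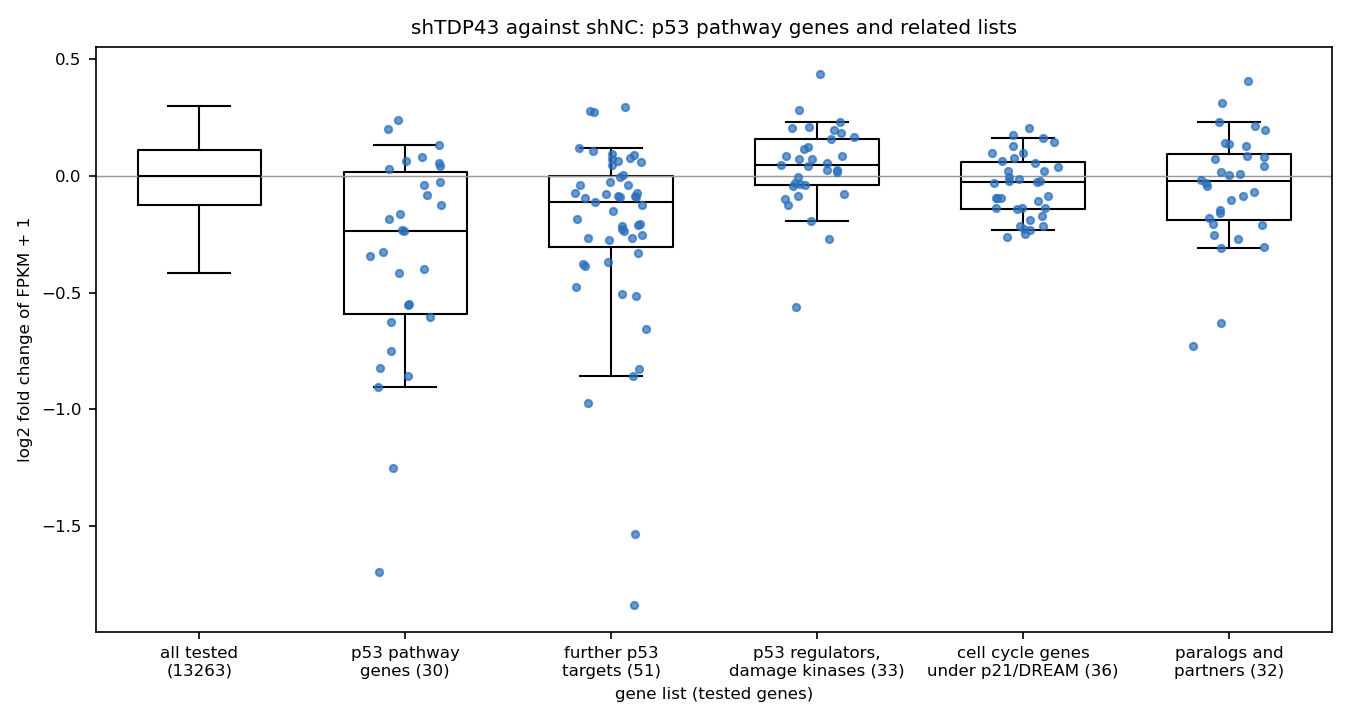
Log2 fold change of FPKM + 1, shTDP43 against shNC, for all 13263 tested genes (box only), the 30 tested p53 pathway genes and 4 related lists; boxes span the quartiles with the median as a line, whiskers the 5th to 95th percentiles, and each dot is 1 gene. The medians are -0.23 for the pathway genes, -0.11 for further p53 targets, 0.05 for regulators, -0.03 for cell cycle genes and -0.02 for paralogs and partners, against 0.00 for all tested genes.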

How the data were processed

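RNA of 6 libraries (3 shNC, 3 shTDP43) was analysed from 1 table of FPKM values that the authors deposited. Per the submitters' processing notes, the tools were TopHat2 2.1.0, SAMtools and Cuffdiff 2.2.1 and the build hg38. The library kit kept strand, per the labels' protocols, but the annotation, the strand setting of the counting and the scaling were not given in the sources used here. The table holds no counts, so absolute depth is unknown, and relative depth came from 1655 low genes. Groups came from the sample titles.

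Values were transformed as log2(FPKM + 1) and fitted across genes with limma 3.58.1 in R 4.3.3, with group as the only term, a variance trend and a two-sided test. The fit covered 13263 genes whose mean reached 1 FPKM and left out 13109. The pathway genes, arms and lists were chosen with earlier results of these data known. Every pathway gene is named, and from each related list the 3 largest falls and 3 largest rises that passed, except that some genes are not reported here. ATM, ATR, TNFRSF10C, TNFRSF10D, the neighbours and the marker genes were named after their values were seen. The fit was tested on simulated data. Gene locations came from RefSeq on GRCh38.p14, the assembly that hg38 also names.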

Additional observations from a re-analysis of the deposited data

How the results depend on the processing

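The deposited values give no counts, so precision at low FPKM is limited by an unknown depth. Of the 20 pathway genes that passed, 16 passed under every alternative that tested them, and the exceptions were CCNG2, PMAIP1, POLH and MDM2. No gene reversed its direction with a call. PLK3 passed as lower with no variance trend (adjusted p = 0.0319). Pseudocounts of 0.1 and 0.01, scaling by the median ratio and quantile normalization left 17 or 18 pathway genes lower and 2 higher. With a mean of at least 5 FPKM, which tests fewer genes, 3 of 6 genes of arrest and 5 of 8 of death were lower. Of 27 paralogs and partners tested there, 2 were higher. Of all 9585 genes tested at that level, 1949 were lower and 2164 higher. Without both libraries low in SNORD3A, 1 pathway gene and 0 genes of arrest were higher, and 2 regulators were lower. This alternative was added after the data were seen and leaves fewer libraries. In it 7 cell cycle genes were lower and 3 higher. Of all 13259 tested genes 1760 were lower and 1563 higher in that fit. Without each library in turn, 15 to 18 pathway genes were lower and 2 higher. In these fits 7 to 8 genes of death, 2 to 3 of repair and 1 to 2 of feedback were lower. The number of cell cycle genes higher was 3 to 6, and the median of the pathway genes was between -0.26 and -0.20. Of all tested genes 2077 to 2292 were lower and 1932 to 2093 higher in the same fits. Whether the labels' numbers pair the libraries could not be decided with 3 libraries per group. Same-numbered libraries deviated together at r = -0.0683, 0.0644 and 0.112 across genes, and those of unlike number at r between -0.199 and 0.135. With a replicate block, 18 pathway genes were lower and 2 higher, as without it.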
